A study of Mus musculus with 12 samples.

Results

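Transient receptor potential (TRP) channels and P2X receptors were compared between anterior horn cells and posterior column tissue of the mouse spinal cord. The members were the genes named Trpa, Trpc, Trpm, Trpv or P2rx with a number, taken from array rows to which the platform annotation gave exactly 1 symbol. This gave 27 of 20261 named genes in the gene-level table, of which 20 were TRP and 7 were P2X genes. In the exon-level table it gave 28 of 22345 genes, with 857 probesets, because Trpc5 was named there. The gene-level row of Trpc5 carried a second symbol, Mageb16, and was left out.

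Both groups were untreated C57Bl/6 mice (C57BL/6J in the methods), 6 weeks of age, with 3 arrays of anterior horn cells and 3 of posterior column, each run on an Affymetrix exon array (Mouse Exon 1.0 ST). The mice were male by the methods. The anterior horn samples were large cells cut by laser from sections of the cervical cord, and the controls were whole areas of dorsal horn, so pieces of tissue were set against cells picked by size. Cells of several mice were collected, and the labels do not say which mice each replicate number stands for, so p-values measure only the spread between these samples. RNA was amplified linearly before labelling. No genotype or agent set the groups apart.

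TRP channels are cation channels with subunits that cross the membrane repeatedly and assemble as tetramers. The vanilloid (TRPV), ankyrin (TRPA) and melastatin (TRPM) families include sensors of heat, cold, irritants and cell volume, and the canonical (TRPC) family opens after receptors activate phospholipase C. P2X receptors are trimeric cation channels opened by extracellular ATP. In the dorsal horn both kinds are best known from the terminals of primary sensory neurons, where Trpv1, Trpa1, Trpm8 and P2rx3 serve pain, itch and temperature sense, and from microglia, where P2rx4 and P2rx7 respond to ATP.

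The gene-level values were linear intensities of transcript clusters, the sets of probes assigned to a gene. The log2 of intensity plus 1 was compared with limma, a linear model that pools the spread over genes, with Benjamini-Hochberg adjustment over 24343 rows of 1 symbol. A gene was called at an adjusted p under 0.05. Because of the 1 added, fold changes of dim genes are understated, and intensities were not compared between genes. Median intensity lay between 32.9 and 35.2 on the 6 arrays. The mean correlation of an array with others of its own group was 0.940 to 0.961, and with the other group 0.881 to 0.887, and no array stood apart.

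The labelled cell types were checked against their markers. Of 6 motor neuron markers, 5 were higher in the anterior horn arrays, and their summed intensity was 16900 to 17800 against 375 to 482. Mnx1, a motor neuron transcription factor, was not called (161 ± 22.9 against 229 ± 14.1, SD, n = 3 each). Of 11 dorsal horn neuron markers measured, 7 were lower, with a summed intensity of 6408 to 7222 against 21940 to 23750. Lbx1, Tac2 and Ebf2 lay near the bottom of the table in the anterior horn arrays, at means of 9.14, 6.62 and 4.96. With its exon-level median Lbx1 did not pass (-0.91 on the log2 scale, limma, adjusted p = 0.101). Tlx3, Slc6a5, Lmx1b and Slc32a1 were not called, with log2 fold changes from -0.46 to 0.16. Other cell types moved with the groups too. Among 6 astrocyte markers 5 were lower and S100b was higher (summed 6065 to 6496 against 12040 to 13010). All 7 oligodendrocyte markers measured were lower (10910 to 11940 against 22770 to 23720), and 4 of them kept the call whichever array was left out. With exon-level medians Olig2 turned direction (0.13, limma, adjusted p = 0.645) and Mbp did not pass (-0.67, 0.123). For microglia 7 of 8 were lower (1759 to 1877 against 4584 to 5065), and for vessels 5 of 7 (674 to 775 against 2133 to 2501). The call held whichever array was left out for 6 of these 7 microglial and 3 of these 5 vessel genes. With exon-level medians the astrocyte genes Gja1 and Aldh1l1, the microglial C1qb and P2ry12 and the vessel gene Cldn5 did not pass (limma, adjusted p from 0.0716 to 0.455). Of 7 primary sensory markers 1 was higher and 1 lower (652 to 756 against 1237 to 1809), and none of 5 ependymal and meningeal markers was called (781 to 996 against 628 to 771). The part of these cell types in the results below was not tested. In such samples, fewer cells of a type and less RNA per cell cannot be told apart.

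At the gene level, 5 of the 27 genes were higher in the anterior horn arrays and 2 were lower, while 20 were not called. The share called was 25.9%, beside 26.4% of all rows tested. By direction, 13.8% of all rows were higher and 12.6% were lower, so the members were called about as often as other genes. The genes that rose were P2rx6, Trpv2, Trpm6, Trpm7 and Trpm1, and those that fell were Trpm3 and Trpc7. The median log2 fold change was 0.30 over the 27 genes and 0.02 over all rows. The groups did not overlap in 12 of 27 members, beside 45.6% of all rows, and 5 of these 12 were not called. Leaving out anterior horn replicate 3 reduced the number of higher genes to 2, and leaving out anterior horn replicate 1 or 2 or posterior column replicate 2 or 3 reduced it to 3. When unnamed rows were tested as well, P2rx6 was the only member called higher and Trpm3 the only one lower.

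**Figure D1:**
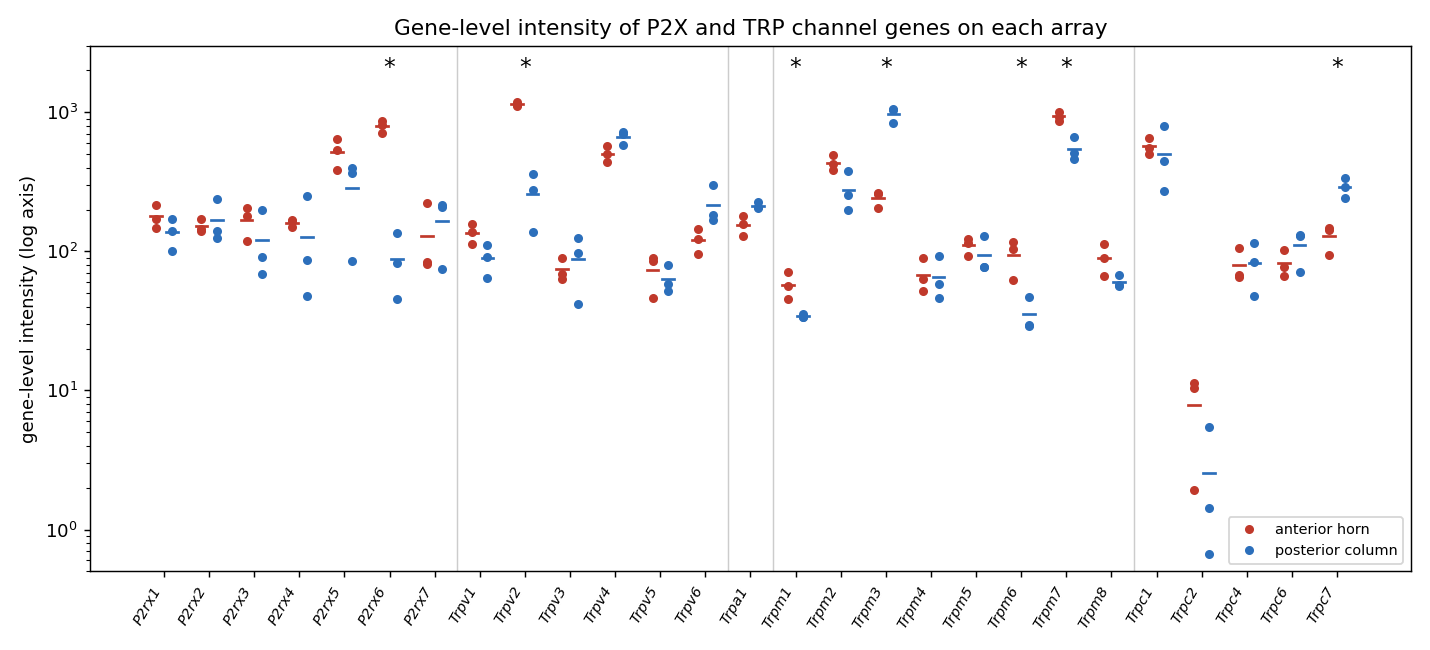
Gene-level intensity (log axis) of the 27 genes on each of the 6 arrays. Points are arrays, short lines are group means (n = 3), red is anterior horn, blue is posterior column, and a star marks a gene called by limma. P2rx6 lay between 713 and 860 on the anterior horn arrays and at or under 137 on the posterior column arrays, while Trpm3 lay between 204 and 262 against 840 to 1049.

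P2rx6, an ATP-gated channel subunit that forms few functional channels by itself and can assemble with other P2X subunits, was higher in anterior horn cells. Its intensity was 860.1, 809 and 713 on the anterior horn arrays and 45.2, 137 and 83.2 on the posterior column arrays. The lowest anterior horn value thus lay far above the highest posterior column value. The rise was 9.76-fold (95% interval 5.04 to 18.9), a log2 fold change of 3.29 with a standard error of 0.39 (limma, adjusted p = 0.00372). P2rx6 was called in all 19 alternative settings that were tried, with a smaller log2 fold change of 1.35 when the median of its exon-level values stood for the gene. Here and below, these settings include the same fit at unadjusted p, where no call can be lost. The possible partner subunits of P2rx6 were not called. P2rx2 had 152 ± 16.9 against 167 ± 61.8 (SD, n = 3 each), and P2rx4 had 161 ± 9.19 against 127 ± 106.

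At the exon level, where each probeset is a small group of probes that mostly lies in 1 exon, 10 of 26 P2rx6 probesets were higher (limma over all 1195555 probesets). Of all probesets, 0.57% were higher and 0.654% lower. Only 319246 of all the probesets carried 1 symbol, as the members do, and the share among these is not given here. The log2 fold changes of the called P2rx6 probesets reached 4.45, and the median over the 26 was 1.39. The probeset with the smallest adjusted p read 10.84, 10.94 and 11.02 on the anterior horn arrays and 7.69, 8.23 and 8.07 on the posterior column arrays, on the log2 scale (difference 2.94, standard error 0.22, limma, adjusted p = 0.00459). In the 13 brighter probesets the median difference was 1.66 with 7 called, and in the 13 dimmer ones it was 0.69 with 3 called. Called probesets were thus found among both the brighter and the dimmer ones. Brightness was the mean over all arrays, which includes the higher anterior horn values of P2rx6. The larger difference in the brighter probesets is therefore partly built in, and the split cannot tell whether the difference depends on signal strength.

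Among the other P2X genes, none was called at the gene level, and P2rx5 and P2rx4 had called probesets. P2rx5, an ATP channel known from muscle and sensory neurons, had 539, 382 and 644 in anterior horn arrays and 397, 85.7 and 368 in posterior column arrays. These ranges overlapped, since posterior column replicates 1 and 3 reached the lowest anterior horn value or lay just under it, and the log2 fold change of 1.13 (standard error 0.61) did not pass (limma, adjusted p = 0.223). Without posterior column replicate 2 it was 0.41. Yet all 15 of its probesets were higher in the mean of the anterior horn arrays, with a median of 1.17, and 3 passed the test at the exon level. The probeset with the largest of these differences read 6.80, 7.08 and 6.75 against 3.88, 4.70 and 5.02 on the log2 scale (2.34, standard error 0.32, limma, adjusted p = 0.0273). The groups are separate in this probeset and not in the summary of the gene.

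P2rx4, an ATP channel of microglia, macrophages and some neurons, had 164, 167 and 150.1 against 248, 47.7 and 86.3. Posterior column replicate 1 alone lay above all anterior horn arrays. With that array the log2 fold change was 0.66 (standard error 0.57, limma, adjusted p = 0.432), and without it 1.31 (adjusted p = 0.0336). One of 20 probesets was higher, at 9.08, 9.08 and 8.95 against 7.69, 6.98 and 7.16 on the log2 scale (1.76, limma, adjusted p = 0.0280). P2rx3, which marks small sensory neurons that send axons into the superficial dorsal horn, had 204, 119 and 179 against 199.6, 69.2 and 90.6. Its groups overlapped (a log2 fold change of 0.59, limma, adjusted p = 0.355). P2rx7, a channel of microglia and other immune cells that can open a wide pore, had 84.2, 223 and 81.0 against 208, 74.7 and 215. In each of its groups 1 array lay apart from the other pair, on opposite sides (a log2 fold change of -0.37, limma, adjusted p = 0.662). P2rx1, a channel of platelets and smooth muscle, had 178 ± 34.5 against 137 ± 34.4 (SD, n = 3 each) and was not called.

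Trpv2, a calcium-permeable channel first known for its response to strong heat, was higher in anterior horn cells. Its intensity was 1117, 1181 and 1120.1 in anterior horn arrays and 275, 138 and 363 in posterior column arrays. The 3 anterior horn values were close to each other, and all were above the posterior column range. The rise was 4.73-fold (95% interval 2.60 to 8.62), a log2 fold change of 2.24 with a standard error of 0.36 (limma, adjusted p = 0.00821). With the median of its exon-level values the difference was 1.14. It kept the call in 18 of 19 alternative settings and lost it when unnamed rows were tested as well (adjusted p = 0.0790). A second transcript cluster named Trpv2 was dim, at 21.1, 0.94 and 9.15 against 11.6, 12.6 and 9.26, and was not called.

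At the exon level 7 of 29 Trpv2 probesets were higher and none was lower, with a median log2 difference of 0.85. The leading one read 7.98, 8.57 and 8.07 against 5.38, 5.15 and 4.80 (3.10, standard error 0.26, limma, adjusted p = 0.00644). Of the 7 called probesets, 6 were among the 14 brighter ones, where the median was 1.49. In the 15 dimmer probesets the median was 0.49. This split also used the mean over all arrays, so the contrast is partly built in, as for P2rx6.

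The best known sensory TRP channels were not called. Trpv1, the capsaicin receptor, had 139, 112 and 158 against 110.5, 91.7 and 64.4. Its groups did not overlap by a narrow margin (a log2 fold change of 0.63, standard error 0.25, limma, adjusted p = 0.114). Trpa1, the receptor for mustard oil and other irritants, had 128, 158 and 179 against 205, 207 and 226. The groups of Trpa1 were separate in the other direction, lower in anterior horn cells (log2 difference -0.47, standard error 0.18, limma, adjusted p = 0.0999). Of the 32 Trpa1 probesets 16 were higher and 16 lower in the mean, and with the exon-level median the difference was -0.16 (limma, adjusted p = 0.521). Trpm8, the cold and menthol receptor, had 113, 67.0 and 90.2 against 56.6, 57.1 and 67.7, with 1 anterior horn array inside the posterior column range (a log2 fold change of 0.54, limma, adjusted p = 0.130).

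Of the 7 primary sensory markers measured, Th, tyrosine hydroxylase, was 3.65-fold lower (271 ± 23.1 against 1007 ± 257, SD, n = 3 each, limma, adjusted p = 0.00338), and its exon-level median did not pass (-0.40, adjusted p = 0.175). Prdm12, a transcription factor of nociceptors, was 1.67-fold higher (85.0 ± 12.2 against 50.9 ± 9.88, limma, adjusted p = 0.0465), and kept the call in none of 6 leave-outs. With its exon-level median Prdm12 did not pass (0.06, limma, adjusted p = 0.884). Scn11a, Scn10a, Nppb, Avil and Mrgprd were not called, with log2 fold changes from -0.79 to 0.01. As background, the cell bodies of primary sensory neurons lie outside the cord, in the dorsal root ganglia.

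Of the other TRPV genes, Trpv4, opened by low osmolarity and warmth, had 436, 569 and 498 against 581, 699 and 717. All its anterior horn values were lower than its posterior column values (a log2 fold change of -0.41, standard error 0.18, limma, adjusted p = 0.135). Trpv6, an epithelial calcium channel, had 94.95, 145 and 124 against 167, 181 and 301, also without overlap (-0.80, standard error 0.29, limma, adjusted p = 0.0876). None of the 21 Trpv4 and 22 Trpv6 probesets was called, and the medians of the probesets were 0.09 and -0.04. For Trpv4, 12 probesets were higher and 9 lower in the mean, so its lower gene-level mean was not seen across them. For Trpv6, 13 were lower and 9 higher, and 2 were lower at an unadjusted p under 0.05 (limma). Trpv3, a channel of keratinocytes, and Trpv5, the calcium channel of the kidney tubule, overlapped between groups.

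**Figure D2:**
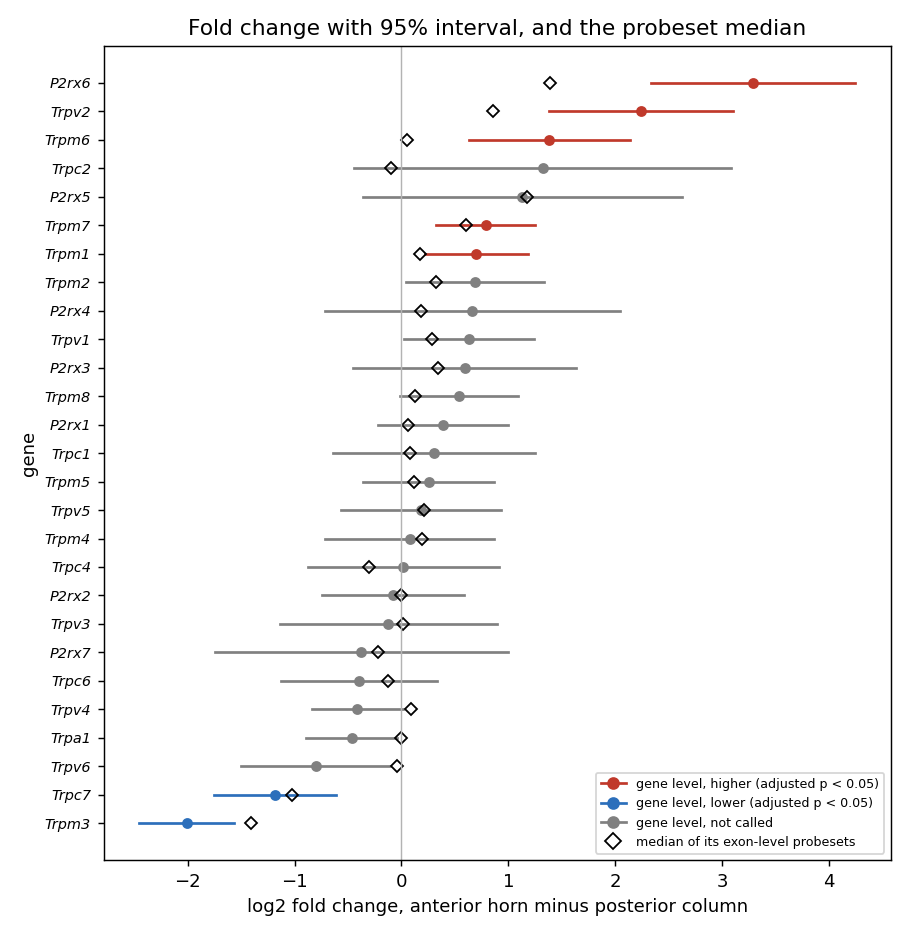
Log2 fold change of each of the 27 genes, anterior horn minus posterior column, at the gene level (dots, with the 95% interval of the limma fit) and as the median of its exon-level probesets (open diamonds). Red and blue dots are genes called higher and lower. P2rx6 has the dot farthest to the right (3.29) and Trpm3 the one farthest to the left (-2.01), and the diamonds of Trpm6 (0.05) and Trpm1 (0.17) lie close to 0.

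Trpm3, a channel opened by pregnenolone sulfate and by heat, was lower in anterior horn cells. Its intensity was 262, 204 and 260.3 in anterior horn arrays and 1049, 839.7 and 1039 in posterior column arrays. The highest anterior horn value was well under the lowest posterior column value. The fall was 4.02-fold (95% interval 2.96 to 5.47), a log2 fold change of -2.01 with a standard error of 0.18 (limma, adjusted p = 0.00165), and the call held in all 19 alternative settings, at -1.27 with the median of the exon-level values.

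At the exon level, 19 of 65 Trpm3 probesets were lower and none was higher. The called differences ran from -1.33 to -2.81 on the log2 scale. One of the tightest read 7.86, 7.89 and 7.65 in anterior horn arrays against 9.70, 9.77 and 9.82 in posterior column arrays (-1.96, standard error 0.19, limma, adjusted p = 0.0100). Of the called probesets, 15 were among the 32 brighter ones, where the median difference was -1.67. The median of the 33 dimmer ones was -0.34, and 8 of the 65 probesets had a higher mean in anterior horn arrays. The brightness of a probeset here includes the higher posterior column values, so the contrast between brighter and dimmer ones is partly built in.

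Trpm7, a channel fused to a protein kinase that carries magnesium, zinc and calcium, was higher in anterior horn cells. It had 872, 923 and 1007 against 667, 513 and 459. The groups were apart, and the rise was 1.73-fold (95% interval 1.26 to 2.37, log2 fold change 0.79, standard error 0.19, limma, adjusted p = 0.0285). The call did not hold without any 1 of anterior horn replicates 1, 2 and 3 (limma, adjusted p = 0.0738, 0.0863 and 0.0955) or posterior column replicates 2 and 3 (0.0749 and 0.0645). With the median of its probesets Trpm7 was not called either (0.56, limma, adjusted p = 0.152). Among 50 probesets 44 had a higher mean in anterior horn arrays, with a median of 0.61. One of them was called, at 7.03, 7.67 and 7.58 against 5.55, 6.10 and 5.23 on the log2 scale (1.80, limma, adjusted p = 0.0488). At an unadjusted p under 0.05, 19 of the 50 were higher and none was lower. Of all probesets, named or not, 6.94% were higher and 6.22% lower.

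Trpm6, the close relative of Trpm7 that serves magnesium uptake in kidney and gut, had 62.4, 105 and 116 against 29.5, 46.8 and 29.3. The gene-level difference of 1.38 (standard error 0.31) was called (limma, adjusted p = 0.0229). The exon level did not show it. None of 49 probesets passed, 27 were higher and 22 lower in the mean, the median was 0.05, and when the median of its probesets stood for the gene the log2 fold change was -0.01 (limma, adjusted p = 0.982). Leaving out anterior horn replicate 2 or 3 or posterior column replicate 1 or 3 also ended the gene-level call (limma, adjusted p = 0.0776, 0.0756, 0.0613 and 0.0644).

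Trpm1, the channel of retinal ON bipolar cells, had 56.2, 45.5 and 71.0 against 35.5, 33.9 and 33.9. Its row was among the dimmest 25% of rows tested, and the difference of 0.70 (standard error 0.20) passed narrowly (limma, adjusted p = 0.0451). It passed in 7 of 18 alternative settings, among them the same fit at unadjusted p, where no call can be lost. Leaving out any array but anterior horn replicate 2 ended the call, with limma adjusted p between 0.0798 and 0.119. No probeset of 53 was called, the median was 0.17, and with the median of its probesets the log2 fold change was 0.16 (limma, adjusted p = 0.599). The rises of Trpm1, Trpm6 and Trpm7 were thus called in the gene-level table and not with exon-level medians, and the cause of the discrepancy was not tested.

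Trpm2, opened by ADP-ribose and hydrogen peroxide, had 422, 496 and 386 against 255, 199 and 378. The groups did not overlap, but the difference of 0.69 (standard error 0.27) did not pass (limma, adjusted p = 0.106). With the median of its 44 probesets it was 6.73, 6.72 and 6.42 against 5.82, 6.00 and 5.98 on the log2 scale, a difference of 0.69 (standard error 0.15) that passed (limma, adjusted p = 0.0201, beside 16.8% of 22345 genes called this way). Trpm4 and Trpm5, which conduct sodium when calcium rises in the cell, had 68.2 ± 19.2 against 65.7 ± 24.6 and 110.3 ± 15.1 against 94.5 ± 29.9 (SD, n = 3 each) and were not called.

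The direction of Trpm3 differed from that of the other called melastatin genes, and the differences of fold change were measured within arrays for 3 pairs. They were 2.71 for Trpm1 minus Trpm3 (95% interval 2.32 to 3.11), 3.39 for Trpm6 minus Trpm3 (2.10 to 4.69) and 2.80 for Trpm7 minus Trpm3 (2.22 to 3.38). In each pair the 3 anterior horn arrays lay above the 3 posterior column arrays. The exact two-sided permutation test gave p = 0.1 for each, also after adjustment over the 3 pairs, which is the smallest value that 3 arrays against 3 allow. The pairs were picked because their directions differed, so these differences are a description.

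The RefSeq spans of Trpm3 and Trpm1 contain microRNA genes, and 1 mature microRNA from each shares its seed with the other. A further microRNA in the Trpm1 span, on the other strand, and 1 in P2rx7 have other seeds and are not shown. The sequences are shown because the host genes moved in opposite directions at the gene level. They are from RefSeq (GRCm38.p6), 5′ to 3′, with the seed, bases 2 to 8, in capitals. The arrays did not measure the mature microRNAs.
mmu-miR-204-5p, inside Trpm3 (chr19:22750610-22750631, plus strand): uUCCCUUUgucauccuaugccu
mmu-miR-211-5p, inside Trpm1 (chr7:64205831-64205852, plus strand): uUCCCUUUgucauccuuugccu

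Trpc7, a channel of the subgroup opened by diacylglycerol, was lower in anterior horn cells, with 94.9, 143 and 146 against 289, 242 and 336. Every anterior horn array lay under every posterior column array. The fall was 2.27-fold (95% interval 1.53 to 3.37, log2 fold change -1.18, standard error 0.23, limma, adjusted p = 0.0156). It kept the call in 18 of 19 alternative settings, at -0.75 with the median of the exon-level values, and lost it when unnamed rows were tested as well (adjusted p = 0.134). Of its 15 probesets 12 were lower in the mean and 2 passed. The larger of these read 2.70, 2.33 and 2.57 against 7.37, 6.57 and 4.87 on the log2 scale (-3.74, standard error 0.59, limma, adjusted p = 0.0400), and both called probesets were among the 8 dimmer ones.

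Trpc4 and Trpc5 form channels gated through Gq-coupled receptors. The gene-level row of Trpc4 had 106, 65.9 and 67.9 against 47.5, 115 and 83.4, and the groups overlapped (a log2 fold change of 0.02, standard error 0.37, limma, adjusted p = 0.976). Its sign turned when anterior horn replicate 1 or posterior column replicate 1 was left out (-0.20 and -0.32). By the mean of all 6 arrays, which includes the higher posterior column values, 11 of its 23 probesets were brighter. However, 2 of the 23 were lower, and both were among these 11. One read 2.62, 3.08 and 2.63 against 6.94, 6.07 and 7.49 on the log2 scale (-4.06, standard error 0.38, limma, adjusted p = 0.00857), and the other 5.24, 4.94 and 5.24 against 6.99, 7.05 and 7.19 (-1.94, standard error 0.20, adjusted p = 0.0120). With the median of its probesets, Trpc4 was 4.56, 4.64 and 4.56 against 5.09, 5.07 and 5.20 and was called lower (-0.54, standard error 0.13, limma, adjusted p = 0.0312).

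All 13 probesets of Trpc5 had a lower mean in anterior horn arrays, with a median difference of -1.03 on the log2 scale. None passed the adjusted test (limma), and 8 were lower at an unadjusted p under 0.05. The most different one read 6.23, 5.89 and 7.54 against 9.49, 8.07 and 9.47 (-2.45, standard error 0.55, limma, adjusted p = 0.106). The median of its probesets was 7.45, 7.08 and 7.22 against 9.12, 8.06 and 8.10, and this difference of -1.18 passed (standard error 0.29, limma, adjusted p = 0.0307). The RefSeq span of Trpc5 overlaps Trpc5os and Mageb16-ps1.

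Trpc1, which joins other TRPC subunits in mixed channels, had 500.4, 552 and 656 against 794, 274 and 444. The posterior column arrays spread on both sides of the anterior horn range (a log2 fold change of 0.30, standard error 0.39, limma, adjusted p = 0.605), and without posterior column replicate 2 the sign turned (-0.07). One of 25 probesets was higher, at 7.81, 7.33 and 7.48 against 5.89, 4.93 and 5.89 on the log2 scale (1.97, limma, adjusted p = 0.0441). Trpc6 had 81.8 ± 18.0 against 110.5 ± 34.0 (SD, n = 3 each) and was not called. Trpc2, the pheromone channel of the mouse vomeronasal organ, had a gene-level row between 0.67 and 11.3 on all 6 arrays, the other member among the dimmest 25% of rows. Some of its 92 probesets were bright, and none was called. The one with the smallest adjusted p read 5.18, 6.30 and 5.92 against 8.99, 7.58 and 8.33 on the log2 scale (-2.50, standard error 0.44, limma, adjusted p = 0.0534). Xndc1 and Xntrpc overlap it in RefSeq.

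Over the 857 probesets of the 28 genes, 23 were higher and 23 lower. The shares of all probesets, named or not, were the 0.57% and 0.654% given above. Of the 46 called, 36 were in P2rx6, Trpv2 and Trpm3, and 9 genes had at least 1. These numbers rested on all 6 arrays. Leaving out anterior horn replicate 1, 2 or 3 left 3, 4 and 3 higher and 1, 2 and 1 lower, and leaving out posterior column replicate 1, 2 or 3 left 10, 5 and 8 higher and 4, 6 and 7 lower. No gene had called probesets in both directions.

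**Figure D3:**
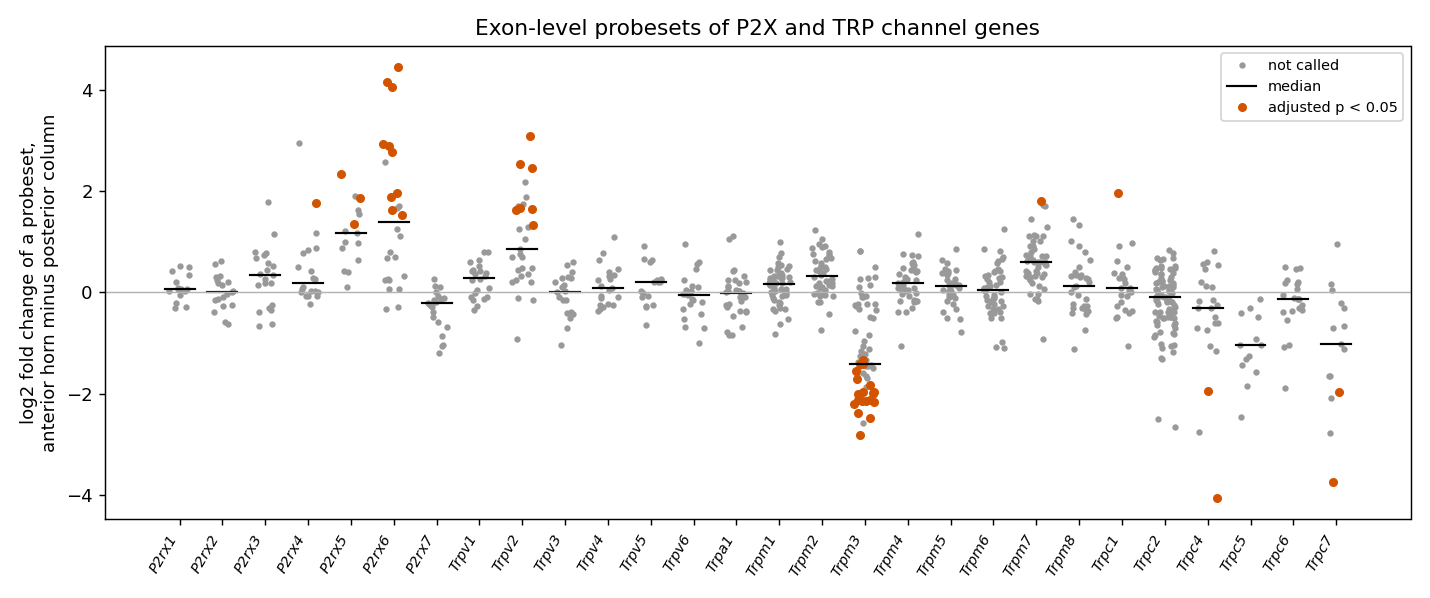
Log2 fold change of each of the 857 exon-level probesets, anterior horn minus posterior column, by gene. Grey points did not pass and orange points were called by limma (adjusted p under 0.05), and black lines are medians. All 13 points of Trpc5 and 57 of 65 of Trpm3 lie under 0, all 15 of P2rx5 lie above 0, and the median of Trpm6 is at 0.05.

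**Figure D4:**
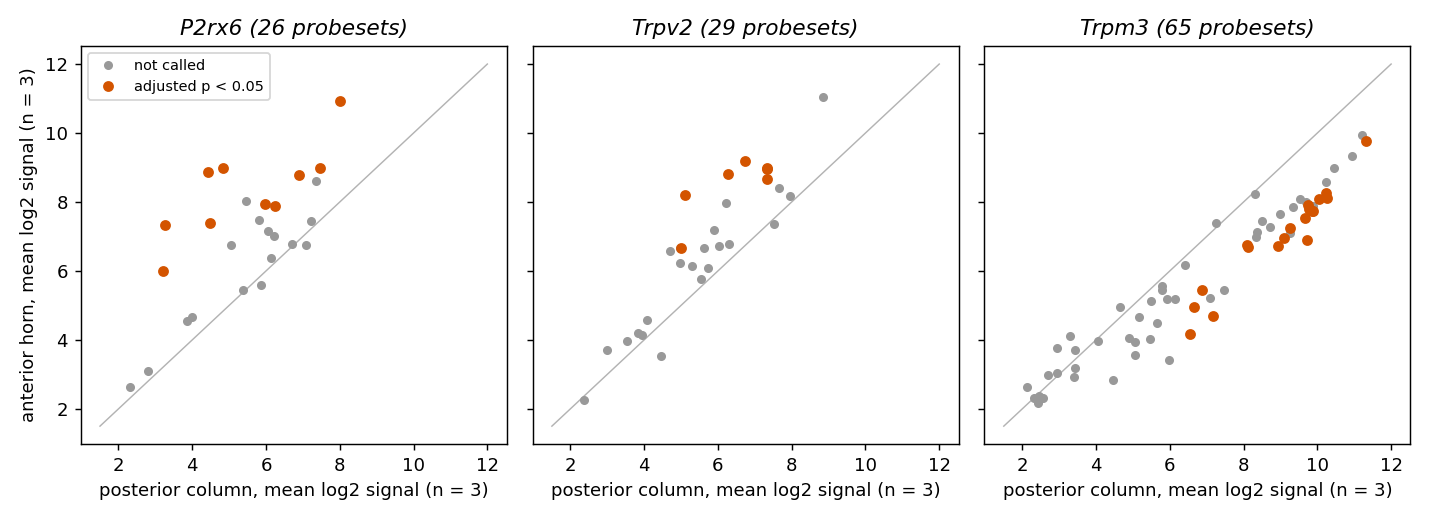
Mean log2 signal (n = 3) of each probeset of P2rx6, Trpv2 and Trpm3 in posterior column (horizontal axis) and anterior horn arrays (vertical axis). The grey line marks equal signal and orange points were called by limma (adjusted p under 0.05). Called points lie above the line in P2rx6 (10 of 26) and Trpv2 (7 of 29) and under it in Trpm3 (19 of 65).

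The 4 genes that kept their gene-level call in at least 18 of 19 alternative settings are shown with the 250 bases before the RefSeq transcription start that lies farthest upstream (GRCm38.p6, 5′ to 3′ on the strand of the gene). Motifs were searched on both strands: TATAAA of many basal promoters, TAATTA of many homeodomain sites, CCCNNGGG of early B-cell factor sites and CACGTG of E-boxes. Matches would be in capitals, and the 1 match found is TTTATA in P2rx6, which is TATAAA read on the other strand. It lies nearer to the upstream end of the window than to the transcription start, and whether it serves as a basal promoter element was not tested.
P2rx6 (chr16:17561635-17561884, plus strand): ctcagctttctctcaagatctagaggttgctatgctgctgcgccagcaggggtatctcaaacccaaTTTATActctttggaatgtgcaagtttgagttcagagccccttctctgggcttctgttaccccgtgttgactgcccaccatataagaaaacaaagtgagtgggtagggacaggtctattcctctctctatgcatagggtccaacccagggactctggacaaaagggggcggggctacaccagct
Trpv2 (chr11:62574236-62574485, plus strand): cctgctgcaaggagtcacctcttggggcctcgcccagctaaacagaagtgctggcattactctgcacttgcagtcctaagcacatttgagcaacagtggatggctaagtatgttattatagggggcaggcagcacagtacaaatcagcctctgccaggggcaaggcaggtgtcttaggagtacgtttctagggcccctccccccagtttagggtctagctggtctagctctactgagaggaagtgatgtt
Trpm3 (chr19:22138796-22139045, plus strand): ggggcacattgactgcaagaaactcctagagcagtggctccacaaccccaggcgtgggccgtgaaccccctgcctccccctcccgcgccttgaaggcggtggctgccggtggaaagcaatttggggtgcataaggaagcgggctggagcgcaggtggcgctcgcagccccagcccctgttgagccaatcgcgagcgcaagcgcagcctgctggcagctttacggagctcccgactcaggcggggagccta
Trpc7 (chr13:56895790-56896039, minus strand): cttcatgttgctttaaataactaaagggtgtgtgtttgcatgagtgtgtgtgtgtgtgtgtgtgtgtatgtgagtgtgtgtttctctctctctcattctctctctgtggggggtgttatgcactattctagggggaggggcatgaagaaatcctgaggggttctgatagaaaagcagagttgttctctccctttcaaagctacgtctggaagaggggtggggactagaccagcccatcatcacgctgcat

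The Trpm3 window held 17 CG dinucleotides, while P2rx6 held 3 and Trpv2 and Trpc7 held 2 each. The median of all 32851 windows was 6.0. TATAAA was found in 12.4% of all windows and in 5 of the 28 windows of 23 members that the table held. TAATTA was in 4.8% of all windows and 1 member window, CCCNNGGG in 11.8% and 4, and CACGTG in 6.0% and 3. These matches describe the letters of the windows and nothing about binding.

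Genes that work beside these channels were counted from lists, with the gene-level fit. Among 8 P2Y receptor genes, a G protein-coupled group of which most respond to ATP and related nucleotides, 4 were lower and none was higher. P2ry12, an ADP receptor of microglia, was 162 ± 19.9 against 549 ± 34.4 (SD, n = 3 each), 3.38-fold lower (limma, adjusted p = 0.00172). P2ry1, an ADP receptor coupled to Gq, was 2.78-fold lower (387 ± 31.2 against 1082 ± 110, SD, n = 3 each, limma, adjusted p = 0.00265). With exon-level medians the log2 fold change of P2ry12 was -0.80 and did not pass (limma, adjusted p = 0.125), and that of P2ry1 was -0.51 and passed (0.0498). P2ry13 and P2ry14 were 2.24-fold and 1.91-fold lower and kept the call in 1 and 4 of 6 leave-outs, and with exon-level medians P2ry13 passed (-0.97, 0.0452) and P2ry14 did not (-0.55, 0.297). P2ry12 and other microglial markers moved the same way, as given above, and their part was not tested.

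Genes of ATP release were called in both directions. Panx1, a pore that releases ATP, was 3.27-fold higher (1739 ± 96.5 against 532 ± 35.1, SD, n = 3 each, limma, adjusted p = 0.00132), and Panx3 was 2.51-fold higher, with the call kept in 2 of 6 leave-outs. Gjb6 and Gja1, the connexins of astrocyte gap junctions, were 2.75-fold and 2.62-fold lower. All 6 genes measured were called, 3 in each direction, and 4 of them kept the call in every leave-out (Panx1, Panx2, Gjb6 and Gja1). With exon-level medians Gjb6 kept it (-1.03, limma, adjusted p = 0.0112), while Panx1 (0.76, 0.0775), Panx2 (-0.61, 0.0777), Gja1 (-0.75, 0.151) and Panx3 (0.31, 0.399) did not. Of 8 ectonucleotidases, which break down extracellular ATP, Entpd3 was 3.14-fold higher (916 ± 37.1 against 304 ± 101, SD, n = 3 each, limma, adjusted p = 0.0104). Alpl was 2.00-fold lower and lost the call without anterior horn replicate 2 or 3. With exon-level medians Entpd3 kept the call (limma, adjusted p = 0.00764) and Alpl did not (-0.54, 0.0882). Of the adenosine receptors only Adora3 was measured and it was not called (57.4 ± 9.15 against 61.9 ± 29.9, SD, n = 3 each).

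On the TRP side, 2 of 5 other TRP superfamily channels measured were higher. Pkd2l1, a polycystin-like channel, was 2.38-fold and Mcoln1, a channel of lysosomes, 1.70-fold higher, and each kept the call in 1 of 6 leave-outs. With exon-level medians Mcoln1 passed (0.84, limma, adjusted p = 0.0223) and Pkd2l1 did not (0.27, 0.389). Of 12 genes of Gq and phospholipase C coupling, which opens TRPC channels, 3 were higher and 2 lower. Gna14, a Gq-class alpha subunit, was 24.0-fold higher, at 1787 ± 143 against 74.0 ± 12.8 (SD, n = 3 each, limma, adjusted p = 0.00022). Gnaq, the widely expressed alpha subunit of the same class, was 1.70-fold lower and lost the call without anterior horn replicate 2 or 3. Pip5k1b, which makes the phospholipase substrate, was 2.27-fold higher, and lost the call without anterior horn replicate 1 or 2. Plcg1 was 1.66-fold lower and kept the call in 1 of 6 leave-outs. With exon-level medians Gna14 (2.32, limma, adjusted p = 0.00011) and Pip5k1b (0.96, 0.00573) passed, and Gnaq (-0.49, 0.0686) and Plcg1 (-0.44, 0.136) did not.

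Of 7 genes of store-operated calcium entry measured, Itpr3 was higher and Itpr2 lower. These encode receptors that release calcium from internal stores in response to inositol trisphosphate. Itpr3 had 634 ± 22.7 against 49.7 ± 4.48, and Itpr2 had 196 ± 28.7 against 596 ± 49.5 (SD, n = 3 each), so the former was 12.5-fold higher and the latter 3.05-fold lower (limma, adjusted p = 0.000228 and 0.00271). With exon-level medians the log2 fold changes were smaller, 1.34 for Itpr3 and -0.70 for Itpr2, and passed (limma, adjusted p = 0.0011 and 0.0223). The Stim calcium sensors and Orai channels were not called. Of 10 channel partners measured, 4 were higher and 4 lower. Sestd1, which binds TRPC4 and TRPC5, was 2.74-fold higher, and Homer2, a scaffold that binds TRPC channels, was 2.86-fold lower, and both held in every leave-out. Slc9a3r1, a PDZ scaffold that binds TRPC4, was 3.17-fold lower, and Fkbp4, an immunophilin, 1.65-fold higher, and each kept the call in 2 of 6 leave-outs. With exon-level medians all 4 passed, at 1.07 for Sestd1, -1.38 for Homer2, -0.92 for Slc9a3r1 and 0.63 for Fkbp4 on the log2 scale. The share of all rows called was the 26.4% given above, and no list was tested as a set.

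**Figure D5:**
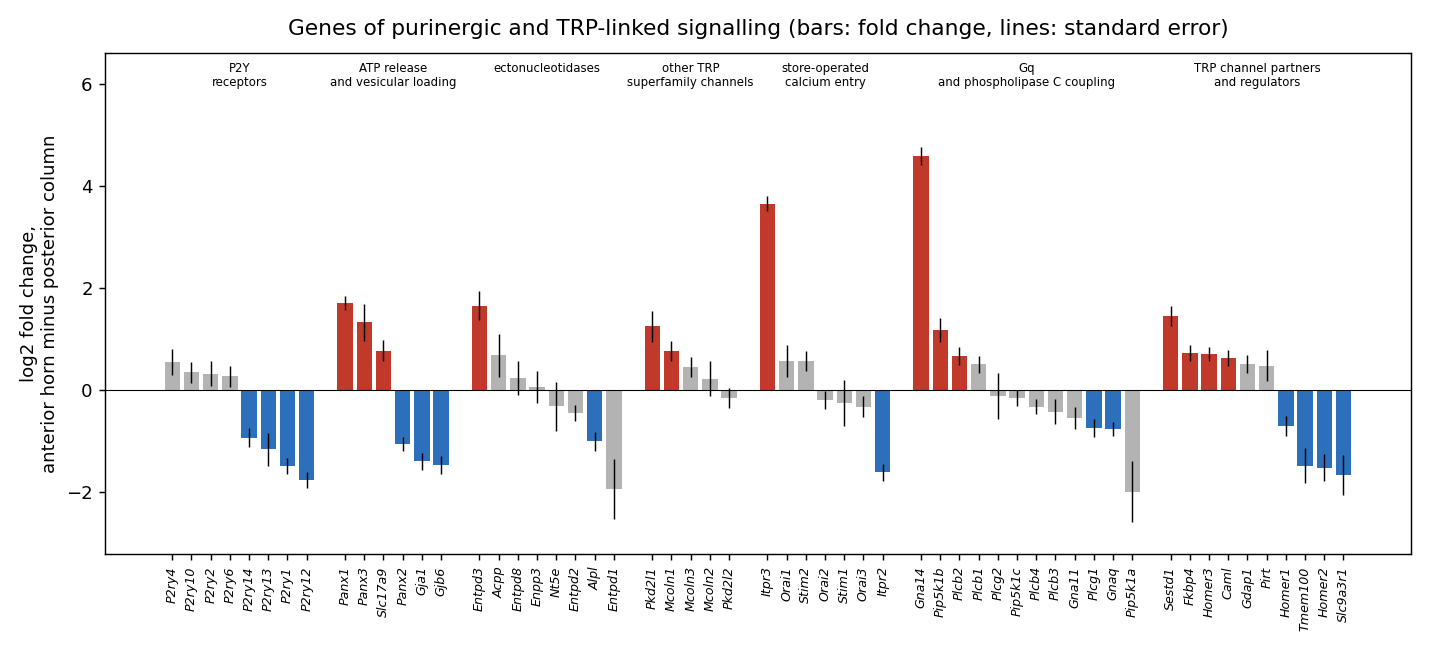
Log2 fold change of genes of purinergic and TRP-linked signalling, anterior horn minus posterior column, in 7 lists. Red bars were called higher, blue bars lower and grey bars were not called (limma, adjusted p under 0.05), and lines are standard errors. All 4 called P2Y receptors point down, the bars of Itpr3 and Itpr2 point in opposite directions, and Gna14 (4.58) has the tallest bar.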

How the data were processed

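Laser-captured anterior horn cells and posterior column tissue were measured on exon arrays, 3 per group, and each array was deposited at 2 levels. Per the labels, the authors processed the arrays with Affymetrix Expression Console 1.3.1.187. For the summarization method, the background correction and the array's genome build, nothing is stated in the sources used here. The deposited gene-level values were linear intensities, and the deposited exon-level values were on a log2 scale. Both had similar medians on all arrays and were not normalized again. The number of arrays limits the precision.

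Of 238609 gene-level rows, 24343 carried 1 symbol and were tested after 1 was added and the log2 taken. Rows with several symbols (1797) were left out. At the exon level all 1195555 probesets were tested, of which 319246 carried 1 symbol. Groups were compared unpaired by two-sided tests in limma 3.58.1 (R 4.3.3, lmFit with eBayes), and p-values were adjusted by Benjamini-Hochberg. A gene with more than 1 transcript cluster was represented by its brightest one over all arrays. The fits were tested on simulated data, and the outcome for the limma fit is not given here. A test of probesets within a gene (diffSplice) had been planned, but it made too many false calls on simulated data and was not used. All 28 member rows matched an Entrez identifier of the RefSeq table of GRCm38.p6 with the same symbol. Coordinates are those of the RefSeq sequences only. Sequences were taken from RefSeq tables.

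The members and lists were chosen with earlier results of these data known. Values on every array were given for members that were called, whose levels differed in call or direction, or that are best known. From each list up to 2 rises and 2 falls that passed were named, and further genes named were chosen after their values were seen. Alternatives were another normalization, a filter on dim rows, robust estimation with a variance trend, a replicate block, the methods' t-test, leaving out each array, 16 added or a floor of 16, all rows, 1 row per symbol, the median of the exon-level values and unadjusted p-values.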

Additional observations from a re-analysis of the deposited data

How the results depend on the processing

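P2rx6 and Trpm3 kept their gene-level call and direction in 19 of 19 alternatives, and Trpv2 and Trpc7 in 18 of 19, with all rows of the table as the exception. The same limma fit at unadjusted p is among these alternatives, and no call can be lost there. Where 5 genes were higher, the methods' t-test after Benjamini-Hochberg called 3, all rows 1, the median of the exon-level values 3 (2 of the 5, and Trpm2), and leaving out an array 2 to 4. Without posterior column replicate 1 only 3 of the 4 called were among the 5, and without posterior column replicate 3 only 2 of the 3. Where 2 genes were lower, all rows called 1, and 4 were called (these 2 and 2 others) with the methods' t-test unadjusted, at an unadjusted limma p, and with the median of the exon-level values (the others being Trpc4 and Trpc5). The log2 fold change of Trpc4 was -0.54 and those of Trpm6 and Trpm8 were -0.0091 and -0.0499 with the median of the exon-level values. When an array was left out, Trpc4 ranged from -0.32 to 0.30 and Trpc1 from -0.0686 to 0.698. The causes of these changes were not tested.

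Where 23 probesets were higher and 23 lower, 40 and 46 were so with a variance trend and robust estimation, 84 and 68 with the methods' t-test unadjusted, 3 and 6 with that test after Benjamini-Hochberg, and 3 to 10 and 1 to 7 when an array was left out. The deviations of samples that share a replicate number had correlations of 0.034, -0.0075 and 0.021. With 3 arrays per group these values cannot decide whether the numbers pair the samples by mouse. With the replicate number as a block, 3 genes were higher and 2 lower, and Trpm1 and Trpm7 lost the call. At the exon level the block left 0 member probesets higher and 0 lower in limma, with 849 called over the whole array. At an unadjusted p under 0.05, 93 member probesets were higher and 78 lower. The share of all probesets at that threshold under the block is not given here, so these counts cannot be set against it. The methods' t-test after Benjamini-Hochberg, without the block, called 3 and 6. Among the companion genes called, Homer1 and Olig2 turned direction with the median of the exon-level values (0.05 and 0.13). Trpm1 and Trpc2 were among the dimmest 25% of named rows. Adding 16 in place of 1 gave Trpm1 a log2 fold change of 0.53, which did not pass.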

Other observations

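The gene-level row annotated to both Trpc5 and Mageb16 read 503, 371 and 366 on the anterior horn arrays and 982, 995 and 1107 on the posterior column arrays, without overlap. It was left out of the comparisons because it carried more than 1 symbol, and its probes were not assigned to either gene here.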
